A study of Mus musculus with 5 samples.

Results

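Expression of 10 genes of the T cell receptor and of the cytotoxic granule was examined in endothelial cells from mouse liver and from mouse models of hepatoma. The T cell genes were Cd3d, Cd3e, Cd3g, Cd4, Cd8a, Cd8b1 and Lck, which made 7 genes. The cytotoxic genes were Gzma, Gzmb and Prf1, which made 3 genes and which T cells share with natural killer (NK) cells. All probes that carried one of these names on the array were taken, whatever their signal. They were 16 of 56605 probes, and 10 of 37074 gene names.

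The study compared tumor endothelial cells (TECs) of untreated tumors with liver sinusoidal endothelial cells (LSECs), with 1 array for each of 5 conditions. LSECs were from the livers of mice. TECs were from tumors grown in the liver after inoculation of Hepa1-6 cells, a mouse hepatoma line, or of KYN-2 or HAK-1B cells, which are human hepatoma lines, so that the tumors of the last 2 lines were xenografts. The fifth array held Hepa1-6 cancer cells without endothelial cells. The labels give the strain of LSEC and of all 3 TEC samples as C57BL/6 and that of Hepa1-6 cells as C57L. The methods name female mice 6 weeks old, either C57BL/6 or nude (BALB/c nu/nu), and do not say which host carried which line, so the host of the xenografts is not known here. The methods on the arrays also name Huh-7 where the labels name HAK-1B, and the labels were followed. TECs were cells bearing CD31 that were held on magnetic beads, a selection that can keep blood cells with CD31 as well. Each tumor line stands for 1 cell line, and how many mice gave RNA to an array is not given in the sources used here. With a single array per condition no value below has a replicate, so a ratio to LSEC has no test, and precision is limited by how few arrays there are.

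The T cell receptor recognizes peptides held by major histocompatibility molecules and signals through the CD3 chains, which the genes Cd3d, Cd3e and Cd3g encode. Cd4 and Cd8a with Cd8b1 encode the coreceptors of helper and of killer T cells, and Lck encodes the kinase that starts the signal from them. Killer T cells and NK cells hold perforin (Prf1), which forms pores in the target cell, and granzymes A and B (Gzma, Gzmb), proteases that enter through these pores. Nude mice lack a normal thymus and so have few mature T cells, whereas their NK cells are kept, which is why the 2 classes of genes were set side by side.

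The probes are 60-mers, and the part of the transcript that a probe reads decides what its signal reports. The last 30 bases of the probes of the cytotoxic genes are shown first, 5′ to 3′, because the largest ratio between endothelial arrays, that of Gzma, was read by one of them. Capitals mark AATAAA, the letters of the common polyadenylation signal. 
Gzma, A_55_P2094060: gtctgatcacaAATAAAatcaacttgaatg
Gzmb, A_51_P333274: attaatagctccctacagaactttcataca
Prf1, A_55_P2000039: tggcaactactgccacgaagcgtaaacatg

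These 3 genes had 1 probe each. In the coordinates of the array design on mm9, the Gzma probe lay at chr13:113884035-113884094 on the minus strand and began at base 818 of its RefSeq transcript. The Gzmb probe lay at chr14:56877916-56877975 on the minus strand and began at base 1135, and the Prf1 probe lay at chr10:60766941-60767000 on the plus strand and began at base 1983.

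For 5 of the 10 genes the array held more than 1 probe. Those of Cd3d, Cd3e and Cd4 differed on some arrays in the direction they gave against LSEC, and those of Lck in the size. For Cd3d, Cd4 and Lck 2 probes of each are shown. The first line of each pair gives the last 30 bases of the probe with the highest mean signal, near the end of the transcript, and the second line gives the whole of another probe.
Cd3d, A_66_P109615: ATAAAgacgtttccttccgtcggcaggcgc
Cd3d, A_51_P285206: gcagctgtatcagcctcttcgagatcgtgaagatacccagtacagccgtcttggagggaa
Cd4, A_55_P2013655: acagaaaAATAAAggctataAATAAAatgc
Cd4, A_52_P383089: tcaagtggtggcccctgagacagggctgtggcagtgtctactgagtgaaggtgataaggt
Lck, A_55_P2155504: tgcctagcacacaccaggagctcAATAAAa
Lck, A_55_P2506985: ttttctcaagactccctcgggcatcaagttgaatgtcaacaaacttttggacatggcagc

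The letters AATAAA stood in 5 of the 16 probes (31.3%), against 9.77% of all 56605 probes, and the reverse complement TTTATT in 0 of the 16, against 3.85%. In the Cd3d probe the motif began 31 bases from the end, so that its first base falls outside the stretch shown. Of the 5 members with several probes, the probe with the highest mean signal held AATAAA in 4. A match to these letters is a description of the probe only. Of the 16 probes, the accession of 15 was found in the RefSeq gene table of GRCm38.p6, with the same symbol for all 15. A gene with several probes is given below by the probe with the highest mean signal over the 5 arrays unless another probe is named.

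The endothelial label was checked first. Pecam1, which encodes CD31, had a normalized log2 signal of 11.10 in LSEC, 11.01 in KYN-2 TEC, 9.93 in HAK-1B TEC and 9.15 in Hepa1-6 TEC, and was not well above background in Hepa1-6 cells. Cdh5, which encodes VE-cadherin, was at 14.16, 13.10, 12.06 and 11.93 on the same 4 arrays and was not well above background in Hepa1-6 cells. Of 12 endothelial genes listed, 12 had a probe well above background on each of the 4 endothelial arrays and 3 in Hepa1-6 cells. The log2 signal used here was quantile normalized over the 5 arrays, and "well above background" is the flag that the scanner software gives to each spot.

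Most of the 10 genes were detected on the endothelial arrays. A probe was well above background for 6 of 7 T cell genes in LSEC, 5 in KYN-2 TEC, 7 in HAK-1B TEC and 7 in Hepa1-6 TEC, with 2 in Hepa1-6 cells. Among all genes this share was 54.7% in LSEC, 55.1% in KYN-2 TEC, 57.6% in HAK-1B TEC and 79.1% in Hepa1-6 TEC, with 46% in Hepa1-6 cells. The 3 cytotoxic genes were all well above background on each of the 4 endothelial arrays, and 1 of them, Prf1, in Hepa1-6 cells. In bulk RNA of this kind, fewer cells of a type and less RNA per cell cannot be told apart.

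The array of Hepa1-6 TEC read dimmer probes as present than the others did. Its lowest log2 signal well above background was 2.85, against 4.68 in LSEC, 4.65 in KYN-2 TEC, 4.28 in HAK-1B TEC and 5.96 in Hepa1-6 cells. A probe present only on that array therefore need not have been brighter there. LSEC, the 3 TECs and Hepa1-6 cells were on 3 separate slides, so that slide and any difference from LSEC cannot be told apart, whereas the 3 TECs shared 1 slide.

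**Figure D1:**
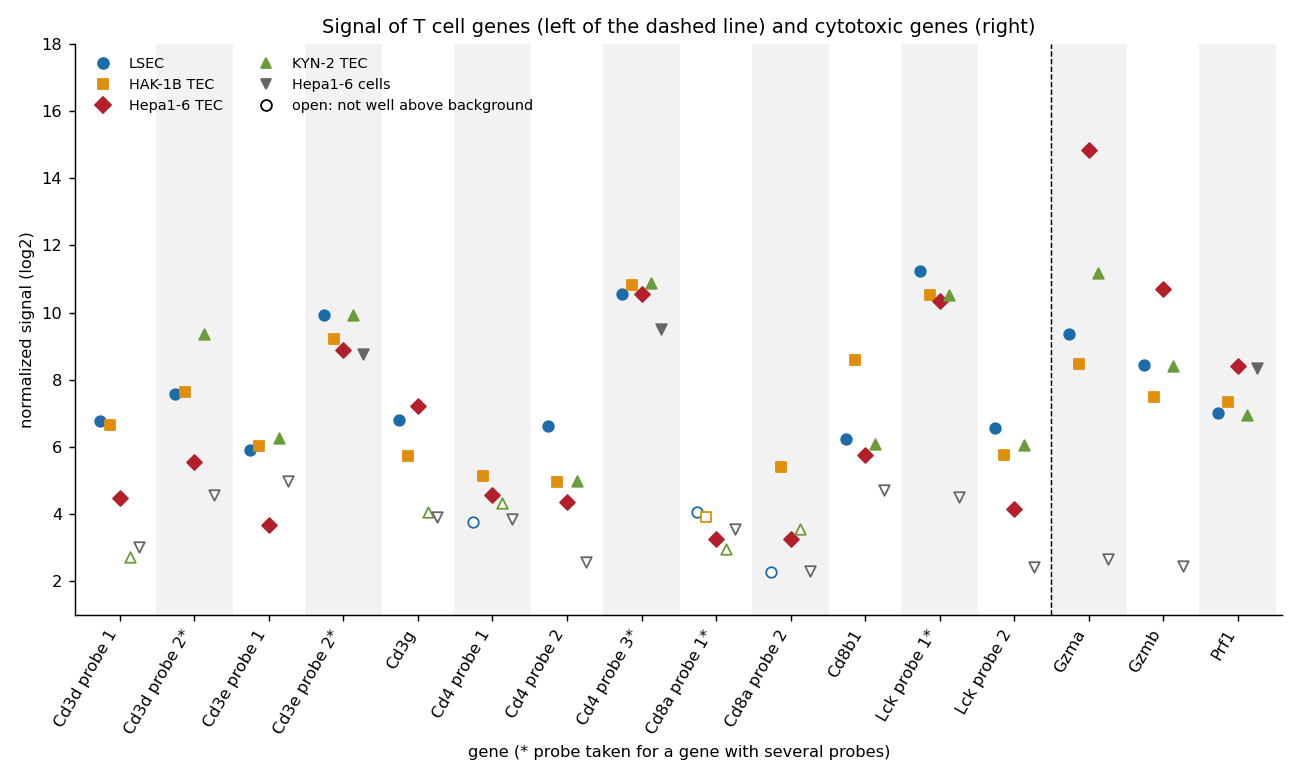
Normalized log2 signal (vertical axis) of each of the 16 probes (horizontal axis) on the 5 arrays, 1 point per array, with open points for a probe not well above background and an asterisk at the probe taken for a gene with several. Gzma in Hepa1-6 TEC stood highest at 14.85, and the probes of Cd4, Cd3e and Prf1 that kept filled points in Hepa1-6 cells can be seen at 9.50, 8.77 and 8.36.

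Among the cytotoxic genes, granzyme A differed most between arrays. The log2 signal of Gzma was 9.35 in LSEC, 11.18 in KYN-2 TEC, 8.47 in HAK-1B TEC and 14.85 in Hepa1-6 TEC, with 2.67 in Hepa1-6 cells, where it was not well above background. Before normalization the background-subtracted intensities were 703, 1385, 364, 32130 and 13.1 in the same order. Hepa1-6 TEC stood far above the other arrays and KYN-2 TEC second, while HAK-1B TEC was below LSEC. Against LSEC, Gzma was 45.2-fold higher in Hepa1-6 TEC and 3.57-fold higher in KYN-2 TEC, and 1.84-fold lower in HAK-1B TEC.

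Gzmb had a log2 signal of 8.43 in LSEC, 8.40 in KYN-2 TEC, 7.48 in HAK-1B TEC and 10.71 in Hepa1-6 TEC, with 2.45 in Hepa1-6 cells, where it was not well above background. Hepa1-6 TEC was again the highest, and LSEC and KYN-2 TEC lay close together. Gzmb was 4.84-fold higher than in LSEC in Hepa1-6 TEC and 1.93-fold lower in HAK-1B TEC, and the ratio was 1.02-fold lower in KYN-2 TEC.

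Prf1 had a log2 signal of 7.0 in LSEC, 6.94 in KYN-2 TEC, 7.34 in HAK-1B TEC and 8.42 in Hepa1-6 TEC, with 8.36 in Hepa1-6 cells. Its probe was well above background on all 5 arrays, and the cancer cells gave about the signal of the TECs from their own tumors. Prf1 was 2.69-fold higher than LSEC in Hepa1-6 TEC and 2.57-fold higher in Hepa1-6 cells. Hepatoma genes were also bright on the array of Hepa1-6 TEC. Afp, the fetal liver protein that hepatomas make, had a log2 signal of 15.38 there and 15.92 in Hepa1-6 cells, against 7.80 in LSEC, 8.06 in KYN-2 TEC and 6.21 in HAK-1B TEC. Of 10 hepatoma and hepatocyte genes, 9 were well above background in Hepa1-6 TEC, 10 in LSEC, 10 in KYN-2 TEC, 7 in HAK-1B TEC and 5 in Hepa1-6 cells. Their summed linear signal was 247126 in Hepa1-6 TEC, 87901 in LSEC, 80652 in KYN-2 TEC, 107093 in HAK-1B TEC and 123576 in Hepa1-6 cells, with Trf giving the highest signal on the first 4 of these arrays and Afp in the cells. Alb, the gene of albumin, was higher in Hepa1-6 TEC, at 15.54, than in Hepa1-6 cells, at 13.94. The part of cancer cell RNA in the Prf1 value was not tested, whereas Gzma and Gzmb were not well above background in the cancer cells.

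Over the 4 endothelial arrays the log2 signal of Gzma spanned 6.38, that of Gzmb 3.23 and that of Prf1 1.49. Among the T cell genes the span ran from 0.33 for Cd4 to 3.83 for Cd3d, so that only Gzma lay outside the range of the T cell genes. Lck had a log2 signal of 11.23 in LSEC, 10.51 in KYN-2 TEC, 10.51 in HAK-1B TEC and 10.36 in Hepa1-6 TEC, with 4.50 in Hepa1-6 cells, where it was not well above background. The 3 TECs were almost level and LSEC was above them, so that Lck was 1.65-fold lower in KYN-2 TEC, 1.65-fold lower in HAK-1B TEC and 1.84-fold lower in Hepa1-6 TEC. The second Lck probe was also highest in LSEC, at 6.56, with 6.06 in KYN-2 TEC, 5.76 in HAK-1B TEC and 4.15 in Hepa1-6 TEC. After quantile normalization both probes thus placed Hepa1-6 TEC lowest of the endothelial arrays, by 1.84-fold and 5.32-fold against LSEC. Before normalization the second probe had intensities of 103 in LSEC, 36.6 in KYN-2 TEC, 51.1 in HAK-1B TEC and 49.4 in Hepa1-6 TEC. The 5.32-fold of this dim probe therefore depends on the normalization.

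The CD3 chains did not share 1 order. Cd3e, the gene of CD3 epsilon, had a log2 signal of 9.92 in LSEC, 9.91 in KYN-2 TEC, 9.20 in HAK-1B TEC and 8.87 in Hepa1-6 TEC, with 8.77 in Hepa1-6 cells, and was well above background on all 5 arrays. The cancer cells thus gave nearly the signal of Hepa1-6 TEC with this probe. The other Cd3e probe was not well above background in Hepa1-6 cells and had 5.91 in LSEC, 6.27 in KYN-2 TEC, 6.02 in HAK-1B TEC and 3.69 in Hepa1-6 TEC. It was 4.66-fold lower in Hepa1-6 TEC than in LSEC, against 2.07-fold by the probe near the end of the transcript. Before normalization this other probe had intensities of 38.6 in Hepa1-6 TEC and 65.2 in LSEC, so the 4.66-fold depends on the normalization. In HAK-1B and KYN-2 TEC the 2 probes gave opposite directions. The log2 ratios there were 0.11 and 0.37 by this other probe, and -0.72 and -0.008 by the probe near the end.

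Cd3d had a log2 signal of 7.59 in LSEC, 9.37 in KYN-2 TEC, 7.64 in HAK-1B TEC and 5.54 in Hepa1-6 TEC, and was not well above background in Hepa1-6 cells. KYN-2 TEC was the highest and Hepa1-6 TEC the lowest of the 4, at 3.44-fold higher and 4.15-fold lower than LSEC. The second Cd3d probe had 6.76 in LSEC, 6.65 in HAK-1B TEC and 4.48 in Hepa1-6 TEC, and was not well above background in KYN-2 TEC. By that probe Cd3d was at least 4.32-fold lower in KYN-2 TEC than in LSEC, so that the 2 probes of the gene pointed in opposite directions there. Here and below, "at least" sets a probe that was not well above background at the lowest signal well above background on its array.

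Cd3g had a log2 signal of 6.79 in LSEC, 5.72 in HAK-1B TEC and 7.23 in Hepa1-6 TEC, and was not well above background in KYN-2 TEC or in Hepa1-6 cells. It was the T cell gene that was higher in Hepa1-6 TEC than in LSEC, by 1.35-fold. It was at least 4.41-fold lower in KYN-2 TEC and 2.10-fold lower in HAK-1B TEC.

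The coreceptor genes were mixed. Cd4 had a log2 signal of 10.57 in LSEC, 10.89 in KYN-2 TEC, 10.83 in HAK-1B TEC and 10.55 in Hepa1-6 TEC, with 9.50 in Hepa1-6 cells. The 3 TECs lay within 1.25-fold of LSEC, and the probe was well above background in the cancer cells too. The Cd4 probe at chr6:124817706-124817765 on the minus strand, which began at base 1242 of the transcript, read 6.63 in LSEC, 4.99 in KYN-2 TEC, 4.94 in HAK-1B TEC and 4.37 in Hepa1-6 TEC. It was not well above background in Hepa1-6 cells. By this probe LSEC was above each of the 3 TECs, by 3.12-fold in KYN-2, 3.22-fold in HAK-1B and 4.81-fold in Hepa1-6 TEC. Before normalization its intensities were 108 in LSEC, 17.1 in KYN-2 TEC, 27.7 in HAK-1B TEC and 54.9 in Hepa1-6 TEC. Hepa1-6 TEC was thus the brightest TEC before normalization, and the size of its difference from LSEC depends on that step. The remaining Cd4 probe was well above background in HAK-1B TEC, at 5.14, and in Hepa1-6 TEC, at 4.58.

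Cd8a was near the limit of detection. Its first probe was well above background in Hepa1-6 TEC alone, at 3.26, which was below the lowest present signal of every other array, so no fold is given. Its second probe was well above background in HAK-1B TEC, at 5.40, and in Hepa1-6 TEC, at 3.25, and was at least 1.65-fold higher in HAK-1B TEC than in LSEC. Cd8b1, the partner chain, had 6.23 in LSEC, 6.07 in KYN-2 TEC, 8.59 in HAK-1B TEC and 5.76 in Hepa1-6 TEC, and was not well above background in Hepa1-6 cells. HAK-1B TEC thus stood above the other 3 endothelial arrays, and was 5.16-fold higher than LSEC.

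Taken by class, the T cell and the cytotoxic genes parted in Hepa1-6 TEC. The median log2 ratio to LSEC of the 7 T cell genes was -0.15 in KYN-2 TEC, -0.15 in HAK-1B TEC and -0.79 in Hepa1-6 TEC. In HAK-1B and Hepa1-6 TEC this median was the ratio of Cd8a, for which no fold could be given, and without Cd8a the medians were -0.08 in KYN-2 TEC, -0.34 in HAK-1B TEC and -0.67 in Hepa1-6 TEC. That of the 3 cytotoxic genes was -0.03, -0.88 and 2.28 in the same order. In Hepa1-6 cells most of the 10 genes were not well above background, so their medians are no measured levels. With dim signals raised to the lowest signal well above background, the cytotoxic median there was -2.47, which is the bound for Gzmb. Over all probes kept the median ratio was -0.02 in KYN-2 TEC, 0.05 in HAK-1B TEC and 0.05 in Hepa1-6 TEC, with 0.03 in Hepa1-6 cells. The cytotoxic median minus the T cell median was 3.07 in Hepa1-6 TEC, 0.12 in KYN-2 TEC and -0.72 in HAK-1B TEC, and 2.95, 0.046 and -0.54 without Cd8a. When only probes that were not well above background in Hepa1-6 cells were used, which leaves out Prf1, the difference in KYN-2 TEC was 1.62 and that in Hepa1-6 TEC 4.77. The T cell median in Hepa1-6 TEC was -0.06 when arrays were scaled to their 75th percentile instead. With that scaling the log2 ratio of Cd8a, which has no direction, went from -0.79 to 0.83. Cd3d, Cd3e and Lck stayed lower, at -1.34, -1.02 and -0.90, while Cd4 was at -0.06 and Cd3g at 0.67. The size of this median thus depended on the scaling and on Cd8a. In Hepa1-6 TEC the 3 cytotoxic genes were higher than in LSEC and 5 of 7 T cell genes were lower, 1 was higher and Cd8a had no direction, although the log2 ratio of Cd8b1 turned to 0.21 with the other scaling.

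**Figure D2:**
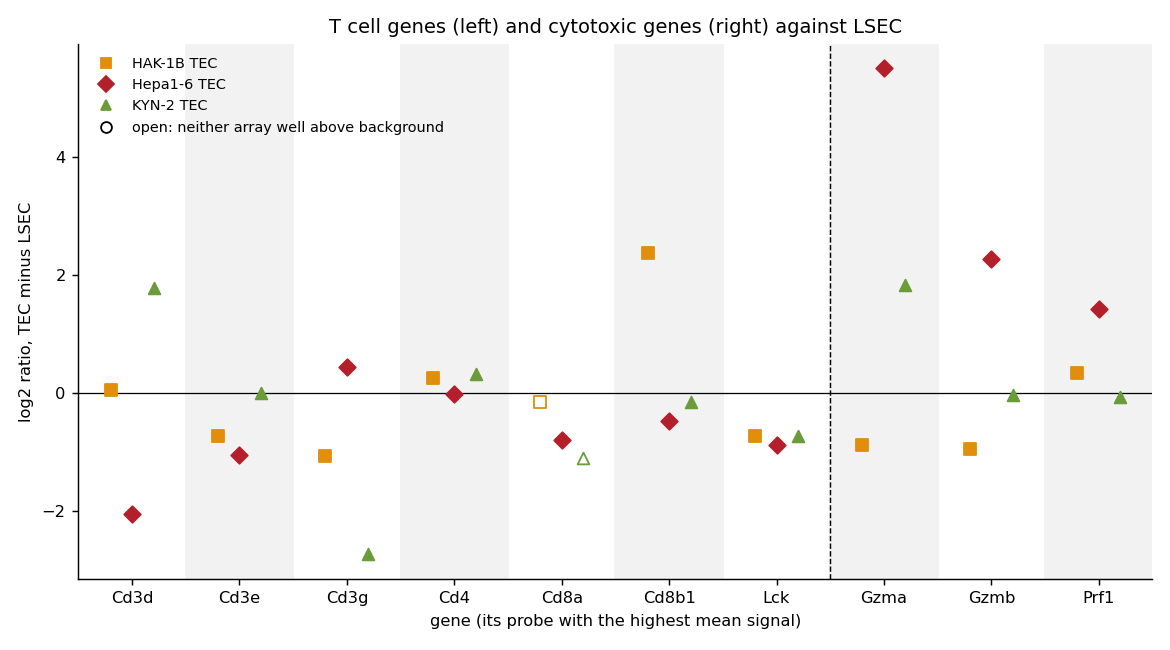
Log2 ratio of each TEC array to the LSEC array (vertical axis) for the 10 genes (horizontal axis), 1 point per TEC, with open points where neither array was well above background. Gzma, Gzmb and Prf1 in Hepa1-6 TEC lay at 5.50, 2.28 and 1.42, while the T cell genes on that array lay between -2.05 and 0.44.

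The rule of size of the study calls a gene higher at a ratio of 1.5 or more and a Z-score of 2 or more, and lower at a ratio of 0.66 or less and a Z-score of -2 or less, over the probes present on at least 1 of the 2 arrays. With 1 array a side this rule describes these arrays and is no test. The Z-score made it ask for an 11.4-fold higher or 9.84-fold lower ratio in Hepa1-6 TEC, for 6.79-fold or 6.77-fold in KYN-2 TEC, for 7.25-fold or 6.91-fold in HAK-1B TEC and for 39.8-fold or 51.2-fold in Hepa1-6 cells. By any of its probes 1 of the 10 genes was called higher in Hepa1-6 TEC, which was Gzma, and the background share called higher was 5.38% of genes. In HAK-1B TEC 1 gene was called higher, which was Cd8a by its second probe, beside a background of 3.6%. In KYN-2 TEC 1 gene was called lower, which was Cd3d by its second probe, beside a background of 3.52%. Both calls rest on a signal that was not well above background on 1 of the 2 arrays, and their bounds of 1.65-fold and 4.32-fold were below what the rule asks for. In the other direction 0 of the 10 were called, and the background was 2.68% lower in Hepa1-6 TEC, 4.49% higher in KYN-2 TEC and 4.51% lower in HAK-1B TEC. By the probe with the highest mean signal Gzma in Hepa1-6 TEC was the one call among the TECs.

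Against LSEC, Hepa1-6 cells were called lower for Lck, Gzma and Gzmb, 3 of the 10 genes, beside a background of 5.24% lower and 2.99% higher, with 0 of the 10 called higher. These genes were not well above background there, so the calls rest on dim signals. Lck was at least 38.7-fold lower, Gzma at least 10.5-fold and Gzmb at least 5.54-fold, all below the 51.2-fold that the rule asks for. With normexp correction 1 was called lower, and 0 when both arrays had to hold the flag. The other probes that were not well above background in these cells gave bounds of 1.2-fold to 3.09-fold, or none above 1-fold.

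The 3 TEC arrays were also compared with the LSEC array by a limma fit over all probes with Benjamini-Hochberg adjustment, in which the tumors stand for replicates and the LSEC array has no spread of its own. No probe of 45645 passed an adjusted p of 0.05, the smallest being 0.464, and 3766 (8.25%) had an unadjusted p below 0.05. Among the 16 member probes 1 did, the Cd4 probe at base 1242, with a log2 difference of -1.86 (SE 0.55, limma unadjusted p = 0.0247, adjusted p = 0.538), and it was lower in 3 of 3 TECs. Gzma had a mean log2 difference of 2.15 (SE 2.55, limma adjusted p = 0.899) and was higher in 2 of 3 TECs, which ranged from 8.47 to 14.85. Prf1 had 0.57 (SE 0.77, limma adjusted p = 0.909) and Lck -0.77 (SE 0.49, limma adjusted p = 0.796).

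The xenograft TECs were set against Hepa1-6 TEC, since KYN-2 and HAK-1B are human lines and their hosts may have been nude mice. The 3 cytotoxic genes were higher by at least 2-fold in Hepa1-6 TEC than in both xenograft TECs, where 16.6% of all genes were. Gzma was 12.7-fold higher than in KYN-2 TEC and 83.0-fold higher than in HAK-1B TEC. Gzmb was 4.96-fold and 9.35-fold higher, and Prf1 2.81-fold and 2.12-fold higher, in the same order. Of the 7 T cell genes 1 was higher by this measure, Cd3g, and 1 was lower than both xenografts by at least 2-fold, Cd3d, where 11.1% of all genes were. Cd3d in Hepa1-6 TEC was 14.3-fold lower than in KYN-2 TEC and 4.29-fold lower than in HAK-1B TEC. Its second probe gave 4.48 in Hepa1-6 TEC against 6.65 in HAK-1B TEC, and was not well above background in KYN-2 TEC, at 2.72, so that no fold to that array is given. By any amount, 5 of the 7 T cell genes were lower in Hepa1-6 TEC than in both xenografts, where 38.2% of all genes were, Cd3g was higher, where 42.5% were, and Cd8a lay between them near the limit of detection. Lck differed by 1.11-fold from each xenograft, Cd4 by 1.26-fold from KYN-2 and 1.21-fold from HAK-1B TEC, and Cd3e by 2.06-fold and 1.25-fold. Cd8b1 was 1.25-fold lower in Hepa1-6 TEC than in KYN-2 TEC and 7.15-fold lower than in HAK-1B TEC.

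The limma fit for this comparison had 1 residual degree of freedom and called 0 of 45645 probes, with a smallest adjusted p of 0.163, while 10767 probes (23.6%) had an unadjusted p below 0.05. Among the 16 member probes 4 did. The mean of the xenograft TECs minus Hepa1-6 TEC was -2.77 for Gzmb (SE 0.58, limma unadjusted p = 0.0376, adjusted p = 0.195) and -1.29 for Prf1 (SE 0.31, unadjusted p = 0.0495, adjusted p = 0.211). The second probes of Cd3e and Lck went the other way, at 2.46 (SE 0.25, limma adjusted p = 0.163) and 1.76 (SE 0.27, limma adjusted p = 0.172). With scaling to the 75th percentile the same fit called 6478 probes, with a smallest adjusted p of 0.0041, and with normexp correction 28, so the count of 0 rests on the normalization. The spread in each of these fits came from the 2 xenograft TECs alone, since Hepa1-6 TEC was 1 array with no spread of its own. For Gzma the difference was -4.91 with scaling and -4.87 with normexp, and whether it passed the threshold also depended on the normalization. In the quantile normalized fit Gzma, with the widest difference of -5.02, had an SE of 1.63 and a limma adjusted p of 0.255, with KYN-2 TEC at 11.18 and HAK-1B TEC at 8.47.

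Scaling changed the sign for some dim probes but not for the cytotoxic genes. With arrays scaled to the 75th percentile the same difference was -4.91 for Gzma, -2.68 for Gzmb and -1.38 for Prf1. The Cd3d probe with the highest signal kept 2.21, Cd8b1 0.84 and Lck 0.25. Both Cd8a probes turned, from 0.16 to -1.74 and from 1.23 to -0.42, and so did the Cd4 probe at base 1242, from 0.60 to -0.75, the remaining Cd4 probe, from 0.15 to -1.10, and the second Cd3d probe, from 0.21 to -1.13. These 5 probes have no settled direction between the tumors. Other dim probes kept theirs, with the second Cd3e probe at 2.46 and 1.00, the second Lck probe at 1.76 and 0.39 and Cd3g at -2.34 and -2.75.

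**Figure D3:**
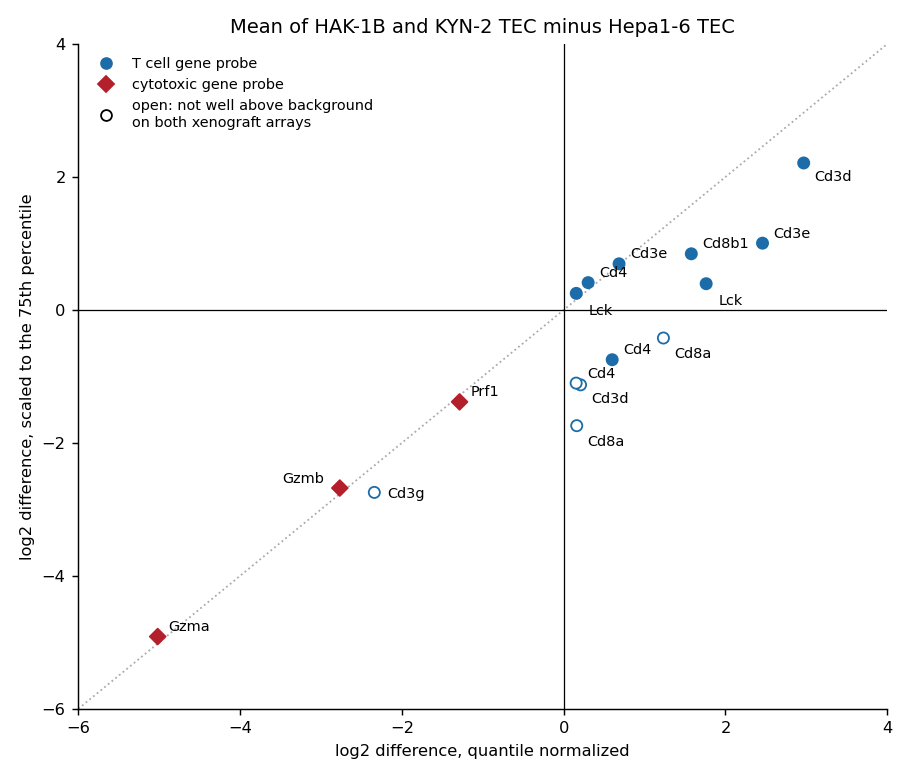
Mean log2 signal of KYN-2 and HAK-1B TEC minus that of Hepa1-6 TEC for the 16 probes, quantile normalized (horizontal axis) and scaled to the 75th percentile (vertical axis), with the dotted line where both are equal and open points for probes not well above background on both xenograft arrays. The cytotoxic genes sat near the line, from -5.02 to -1.29 on the horizontal axis, whereas several T cell probes to the right of 0 fell below 0 on the vertical axis.

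Other genes of T cell receptor signalling were read from a list of 26, all on the array. A probe was well above background for 24 of them in LSEC, 23 in KYN-2 TEC, 24 in HAK-1B TEC and 26 in Hepa1-6 TEC, with 4 in Hepa1-6 cells. Among all genes the share was 54.7%, 55.1%, 57.6%, 79.1% and 46% in the same order, and these shares stand beside the lists below. The median log2 ratio of the 26 genes to LSEC was -0.26 in KYN-2 TEC, 0.45 in HAK-1B TEC and -0.37 in Hepa1-6 TEC. With a probe seen on 1 of the 2 arrays set at its bound, and probes that gave no bound left out, it was -0.33, 0.45 and -0.33. By the rule of size and any probe of a gene, 1 was called higher and 1 lower in KYN-2 TEC. In HAK-1B TEC 0 were called higher and 1 lower, and in Hepa1-6 TEC 0 higher and 2 lower. Among all genes the shares called higher and lower were 4.49% and 3.52% in KYN-2 TEC. They were 3.6% and 4.51% in HAK-1B TEC and 5.38% and 2.68% in Hepa1-6 TEC, and these stand beside the lists below. Fyn, a kinase related to Lck that many cell types use, had a log2 signal of 10.93 in LSEC, 9.03 in KYN-2 TEC, 8.21 in HAK-1B TEC and 7.43 in Hepa1-6 TEC, and was called lower in Hepa1-6 TEC by 11.3-fold. Cd6, a T cell surface receptor, was at 9.23, 6.95, 7.75 and 5.67 and was called lower in Hepa1-6 TEC by 11.8-fold. Both were highest in LSEC and lowest in Hepa1-6 TEC. Themis, needed for T cell development in the thymus, was well above background in LSEC, at 6.08, and in Hepa1-6 TEC, at 6.21, and on neither xenograft array. It was at least 2.70-fold lower than LSEC in KYN-2 TEC and at least 3.50-fold lower in HAK-1B TEC, both called lower. These bounds were below the 6.77-fold and 6.91-fold that the rule asks for, so both calls rest on dim signals. Il7r, the interleukin 7 receptor, was the gene called higher in KYN-2 TEC and was named after its values were seen, at 9.51 in LSEC, 12.57 in KYN-2 TEC, 12.29 in HAK-1B TEC and 10.68 in Hepa1-6 TEC.

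Probes for segments of the T cell receptor itself were mostly dark. Of 11 segments on the array a probe was well above background for 2 in LSEC, 2 in KYN-2 TEC, 2 in HAK-1B TEC and 6 in Hepa1-6 TEC, with 0 in Hepa1-6 cells. Hepa1-6 TEC also had the highest share among all genes, 79.1%. Tcrg-V1, of the gamma chain, had a log2 signal of 5.14 in LSEC, 5.02 in KYN-2 TEC, 5.66 in HAK-1B TEC and 3.52 in Hepa1-6 TEC. Trav14n-1 and Trav9d-4, of the alpha chain, were well above background in Hepa1-6 TEC alone, at 3.14 and 4.26, both below the lowest present signal in LSEC. By the rule of size 0 of the 11 were called in any TEC, and in each TEC no direction against LSEC could be given for 9 of the 11.

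Transcription factors of T cells were a list of 10. With probes at their bounds as above, their median log2 ratio to LSEC was -0.43 in KYN-2 TEC, 0.83 in HAK-1B TEC and 0.60 in Hepa1-6 TEC. By any probe of a gene, the rule of size called 2 higher and 0 lower in KYN-2 TEC and 1 higher and 0 lower in HAK-1B TEC. It called 1 higher and 1 lower in Hepa1-6 TEC. The shares of all genes called ran from 2.68% to 5.38%. By the probe with the highest mean signal, Runx3 was the only gene called in a TEC, in KYN-2 and HAK-1B TEC. Runx3, which T cells and NK cells share with other blood cells, had a log2 signal of 6.92 in LSEC, 10.84 in KYN-2 TEC, 12.77 in HAK-1B TEC and 9.80 in Hepa1-6 TEC. It was not well above background in Hepa1-6 cells. All 3 TECs were above LSEC for Runx3, which was called higher in HAK-1B TEC by 57.8-fold and in KYN-2 TEC by 15.2-fold. Tcf7 and Lef1, factors of Wnt signalling in T cells, were highest among the endothelial arrays in Hepa1-6 TEC, at 9.14 and 9.08, but Hepa1-6 cells had 10.16 and 8.34. Neither was called by this probe, and the part of cancer cell RNA in these values was not tested.

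NK cell genes were read from a list of 26 names, of which 24 were on the array. A probe was well above background for 12 in LSEC, 16 in KYN-2 TEC, 18 in HAK-1B TEC and 23 in Hepa1-6 TEC, with 7 in Hepa1-6 cells. Among all genes the share was 54.7%, 55.1%, 57.6%, 79.1% and 46% in the same order, so Hepa1-6 TEC had the highest share there too. The median log2 ratio of the NK cell genes to LSEC was 0.79 in KYN-2 TEC, 1.16 in HAK-1B TEC and 1.07 in Hepa1-6 TEC. With 12 of the 24 genes not well above background in LSEC, many of these ratios are against a dim signal. With probes at their bounds the medians were 0.38, 1.32 and 1.23 in the same order. By that measure 12 were higher and 5 lower in KYN-2 TEC, 14 higher and 4 lower in HAK-1B TEC, and 15 higher and 5 lower in Hepa1-6 TEC, and the others had no direction. Their summed linear signal was 10510 in LSEC, 5931 in KYN-2 TEC, 7402 in HAK-1B TEC and 6612 in Hepa1-6 TEC, with 4259 in Hepa1-6 cells. Klra1 gave the highest signal in LSEC and KYN-2 TEC, Il2rb in HAK-1B and Hepa1-6 TEC and Klra4 in Hepa1-6 cells. The sum was thus lower in each TEC than in LSEC while the median ratio was above 0. By any probe of a gene, the rule of size called 1 higher and 0 lower in KYN-2 TEC and 3 higher and 1 lower in HAK-1B TEC. It called 2 higher and 1 lower in Hepa1-6 TEC. The shares of all genes called ran from 2.68% to 5.38%. Some of the calls rest on a dim signal in LSEC. Klrb1c and Klrb1b in HAK-1B TEC, named after their values were seen, had bounds of 3.79-fold and 2.84-fold. Klra4 in Hepa1-6 TEC had a bound of 4.29-fold. For a higher call the rule asks for 7.25-fold in HAK-1B TEC and 11.4-fold in Hepa1-6 TEC.

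Single NK cell genes differed in their order. Ncr1, the receptor NKp46 that marks mouse NK cells and was named after its values were seen, had a log2 signal of 6.22 in KYN-2 TEC, 6.52 in HAK-1B TEC and 8.38 in Hepa1-6 TEC, and was not well above background in LSEC or in Hepa1-6 cells. Hepa1-6 TEC was the highest for it, as for Gzma and Gzmb, but the list as a whole did not share this order. Of the 24 NK cell genes, 13 were higher in Hepa1-6 TEC and 11 in the mean of the xenograft TECs. The median xenograft minus Hepa1-6 TEC difference was -0.11, against 0.04 over all probes kept. Sh2d1b1, an adaptor of NK cell receptors, was not well above background in LSEC and was at least 6.69-fold higher in KYN-2 TEC, 18.6-fold in HAK-1B TEC and 4.90-fold in Hepa1-6 TEC, but its probe also gave 7.04 in Hepa1-6 cells. Klra1, a receptor of the Ly49 family, was highest in LSEC, at 12.19, with 10.25 in KYN-2 TEC, 9.09 in HAK-1B TEC and 8.34 in Hepa1-6 TEC. Klra4, of the same family, was well above background in Hepa1-6 TEC, at 6.78, and in Hepa1-6 cells, at 11.32, and on no other array. Genes of this family are near-identical copies and differ between mouse strains, so their probes may read more than 1 of them.

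Other genes of granules and killing were a list of 24. Their median log2 ratio to LSEC was 0.13 in KYN-2 TEC, 0.13 in HAK-1B TEC and 0.41 in Hepa1-6 TEC, and 0.25, 0.48 and 0.22 with probes at their bounds. By any probe of a gene, 0 were called higher and 1 lower in KYN-2 TEC. In HAK-1B TEC 2 were called higher and 1 lower, and in Hepa1-6 TEC 2 higher and 1 lower. The shares of all genes called ran from 2.68% to 5.38%. By the probe with the highest mean signal, the only calls in the TECs were Gzmc in HAK-1B TEC and Gzmc and Gzme in Hepa1-6 TEC, all higher. Gzmc, another granzyme, had a log2 signal of 5.13 in LSEC, 6.67 in KYN-2 TEC, 8.23 in HAK-1B TEC and 9.43 in Hepa1-6 TEC, and was called higher by 8.58-fold in HAK-1B TEC and by 19.7-fold in Hepa1-6 TEC. Gzme was well above background in Hepa1-6 TEC alone, at 6.84, and was at least 4.48-fold higher than LSEC there. This bound was below the 11.4-fold that the rule asks for, so the call of Gzme rests on a dim signal. Gzmc and Gzme thus had their highest endothelial signal in Hepa1-6 TEC, as Gzma and Gzmb had. The other granzymes of the list were named after their values were seen. Gzmm was nearly level, at 6.82 in LSEC, 6.76 in KYN-2 TEC, 6.52 in HAK-1B TEC and 6.96 in Hepa1-6 TEC. Gzmd and Gzmk were well above background in Hepa1-6 TEC alone, at 3.66 and 4.84, and Gzmf, Gzmg and Gzmn on no array. Rab27a, which brings granules to the membrane in many cell types, was instead highest in LSEC, at 8.92, with 6.98 in KYN-2 TEC, 8.02 in HAK-1B TEC and 6.34 in Hepa1-6 TEC. Granzymes share sequence, and whether a probe also reads a related one was not tested.

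**Figure D4:**
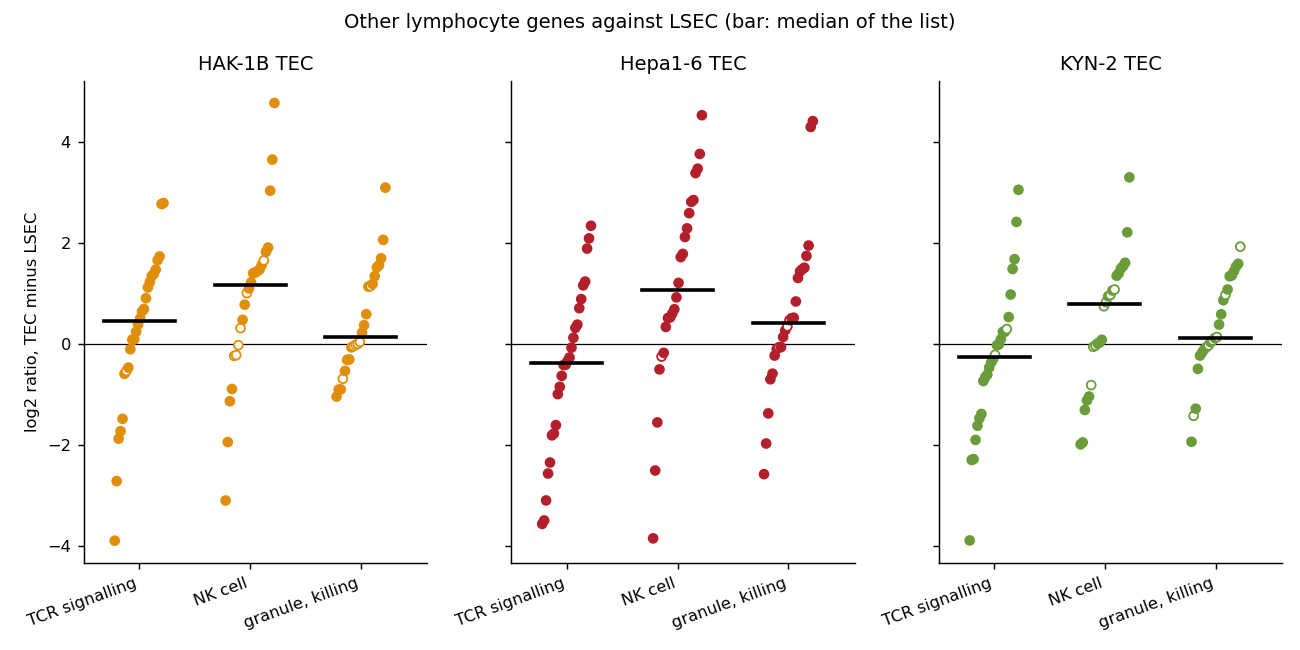
Log2 ratio of each TEC array to LSEC (vertical axis) for 3 lists of other lymphocyte genes (horizontal axis), with genes ordered by ratio within a list, a bar at the median and open points where neither array was well above background. The median of the NK cell list lay at 0.79, 1.16 and 1.07 in KYN-2, HAK-1B and Hepa1-6 TEC, and that of T cell receptor signalling at -0.26, 0.45 and -0.37, and 12 of the 24 NK cell genes were not well above background in LSEC.

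Genes of other cells of the liver and of tumors were read in the same way. A list of 10 genes of all leukocytes had a probe well above background for 10 on each endothelial array and 6 in Hepa1-6 cells. Its summed linear signal was 53203 in LSEC, 104050 in KYN-2 TEC, 235158 in HAK-1B TEC and 113973 in Hepa1-6 TEC, with 3078 in Hepa1-6 cells. The highest gene was Arhgdib in LSEC, Cd52 in HAK-1B and Hepa1-6 TEC, Coro1a in KYN-2 TEC and Ptprc in the cells. The median log2 ratio to LSEC was 1.24 in KYN-2 TEC, 1.66 in HAK-1B TEC and 0.75 in Hepa1-6 TEC. Of the 10 genes 8 were higher than LSEC in KYN-2 TEC, 9 in HAK-1B TEC and 8 in Hepa1-6 TEC. By any probe of a gene, the rule of size called 0, 3 and 0 of them higher in the same order, and 0 lower. The share of all genes called higher was 4.49%, 3.6% and 5.38%. By the probe with the highest mean signal, those called higher in HAK-1B TEC were Cd52 and Coro1a. Ptprc, which encodes CD45, was named after its values were seen and was lower than LSEC in all 3 TECs, at 12.40 in LSEC, 10.86 in KYN-2 TEC, 11.86 in HAK-1B TEC and 11.37 in Hepa1-6 TEC, but its probe also gave 11.04 in Hepa1-6 cells. The median was highest in HAK-1B TEC, the endothelial array on which Gzma and Gzmb were lowest. Their part in the values of the 10 genes was not tested.

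Lists of other blood cells differed in their order, and their medians are given with probes at their bounds. Neutrophil genes (9) had a median log2 ratio of 1.15 in KYN-2 TEC, 5.09 in HAK-1B TEC and 3.31 in Hepa1-6 TEC, with S100a8 higher than LSEC by 3.07-fold, 131-fold and 20.7-fold. B cell genes (9) had 0.09, 0.16 and -1.31 in the same order, with all 9 lower in Hepa1-6 TEC than in LSEC. Genes of plasmacytoid dendritic cells (10), which can bear CD4, had 0.27, 0.83 and -0.27. Those of dendritic cells with CD8a (8) had -0.33, 0.64 and 0.37, and those of Kupffer cells and macrophages (12), which also can bear CD4, had -1.0, 0.14 and -1.20. Mast cell and basophil genes (8) had -1.90, -0.28 and -1.40.

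Genes of lymphocytes that reside in the liver (7) had median log2 ratios of 0.12, -0.10 and -0.53 in KYN-2, HAK-1B and Hepa1-6 TEC. Cd69, a marker of activated and resident lymphocytes, was at 7.76 in LSEC, 9.82 in KYN-2 TEC, 10.97 in HAK-1B TEC and 9.04 in Hepa1-6 TEC. Cxcr6, the receptor that holds lymphocytes in sinusoids, was at 9.56, 8.63, 10.59 and 7.53. Endothelial genes (12) had median ratios of -1.63, -2.85 and -2.58, genes of LSECs (11) had -2.34, -3.22 and -2.82, and hepatoma and hepatocyte genes (10) had -0.77, -2.74 and 1.33. The last of these lists had the order of the cytotoxic medians, highest in Hepa1-6 TEC and lowest in HAK-1B TEC. Over 3 arrays few orders are possible, and a link between the 2 was not tested. Gzma and Gzmb were not well above background in Hepa1-6 cells.

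The genes with the profile most like the mean of each class were sought among 27045 genes outside the lists, by the distance between log2 signals centred on each gene's mean over the 5 arrays. For the T cell genes they were Gpalpp1, Vps8, Gm9465, Gimap1os and Galnt11, at distances of 0.12 to 0.25. The mean T cell profile was 0.70 in LSEC, 0.32 in KYN-2 TEC, 0.70 in HAK-1B TEC and 0.01 in Hepa1-6 TEC, with -1.72 in Hepa1-6 cells, so that the cancer cells set most of its shape. For the cytotoxic genes they were Gpx2-ps1, Tox2, Clec2g, 2010300C02Rik and Gm30082, at 0.79 to 1.40. Tox2 had a log2 signal of 9.39 in LSEC, 9.11 in KYN-2 TEC, 8.94 in HAK-1B TEC and 11.77 in Hepa1-6 TEC, with 5.63 in Hepa1-6 cells, and Clec2g was at 6.10, 7.26, 6.92, 10.51 and 2.75. Their order over the 5 arrays follows from how they were chosen, and 5 arrays are few points for a profile.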

How the data were processed

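RNA of LSECs, of TECs from tumors of Hepa1-6, KYN-2 and HAK-1B, and of Hepa1-6 cells was labelled by the authors with Cy3 and hybridized to 1-colour 60-mer mouse arrays, 1 per condition. They deposited each spot's background-subtracted intensity (gProcessedSignal) on a linear scale, its mean and local background intensity, and flags. The labels name Agilent Feature Extraction 9.5.1.1, whereas the file headers give 10.7.1.1. A deposited table of normalized intensity values served as an alternative. Columns of other series numbered 0.

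Control spots and outlier spots were left out, spots of 1 probe were averaged, and quantile normalization of the log2 intensities ran over the 5 arrays. The median CV of repeated spots was 2.53 to 2.93% across arrays, which covers spot error only, and 0 probes were saturated. Each gene was read by the probe whose mean over the arrays was highest. The rule of size left out 4460 lincRNA probes. limma 3.58.1 (R 4.3.3) was fitted over the probes well above background on 1 or more of the endothelial arrays. Other steps used Python 3.11.15, numpy 2.4.6 and pandas 2.3.3.

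The members and the 18 gene lists (the 2 classes and 16 others) were chosen with earlier results of these data known. Genes named were the 10 members with all their probes, up to 3 genes of each other list with the widest range over the endothelial arrays, the 5 nearest profiles for each class, and Pecam1 and Cdh5. Beyond this rule the gene with the highest signal in a summed list was named, and a few genes were named after their values were seen. Alternatives were the deposited table, scaling to the 75th percentile, other rules for probes and flags, normexp correction (offset 50) and arrays left out.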

Additional observations from a re-analysis of the deposited data

Results flagged for a closer look

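In 4 of the 10 genes the ratio to LSEC had 1 direction in Hepa1-6 TEC and the opposite direction in both xenograft TECs, as in 11.6% of all 26802 genes with a signal well above background on an endothelial array. The difference itself is that between the xenograft TECs and Hepa1-6 TEC, for which the limma adjusted p was 0.195 for Gzmb, 0.272 for Cd3d, 0.319 for Cd3g and 0.451 for Cd4. Gzmb had a log2 ratio of 2.28 in Hepa1-6 TEC, against -0.03 in KYN-2 TEC and -0.95 in HAK-1B TEC. Cd3d had -2.05 in Hepa1-6 TEC, against 1.78 in KYN-2 TEC and 0.05 in HAK-1B TEC, and its second probe was below LSEC on all 3 TEC arrays. The ratio of Cd3d in HAK-1B TEC turned to -0.014 with scaling to the 75th percentile and to -0.029 with the mean over all probes, which also turned that in KYN-2 TEC to -1.13. Cd3g had 0.44 in Hepa1-6 TEC, against -1.07 in HAK-1B TEC, and was at least 4.41-fold lower in KYN-2 TEC, where it was not well above background. Cd4 had -0.013 in Hepa1-6 TEC, against 0.32 and 0.26, which is a 1.01-fold difference from LSEC, by a probe that also gave signal in Hepa1-6 cells. With the mean over all probes Cd4 had -0.25 in KYN-2 TEC and -0.019 in HAK-1B TEC, so neither gene then counted.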

How the results depend on the processing

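The values below are log2 ratios or differences, or counts of genes. A value without a test was taken as moved when it changed by more than the SD over the 3 TECs (or the 2 xenograft TECs), and a count when it changed by more than 1.5 times. Of 200 alternative values for class medians, differences and counts, 159 stayed within this spread, and so did 186 of 207 for single genes, of which 16 changed sign, all for T cell genes. These counts are no measure of robustness. For the 5 genes with 1 probe the mean over all probes could not differ. The SD was wide, at 1.63 for the cytotoxic medians and 1.99 for the differences between classes. The difference in KYN-2 TEC stayed within it while going from 0.12 to 1.62. The cytotoxic minus T cell median in Hepa1-6 TEC ranged from 2.21 to 4.77 over 8 alternatives. The T cell median was -0.064 in Hepa1-6 TEC and -2.07 in Hepa1-6 cells with scaling to the 75th percentile, and -0.21 and -1.03 with normexp correction. With normexp the cytotoxic median in Hepa1-6 cells was -2.64 and its difference from the T cell median -1.61. The xenograft minus Hepa1-6 TEC median of the T cell genes was 0.30, which became 0.41 with scaling, 0.29 with normexp and 0.96 with the mean over all probes of a gene. It was 0.32 to 0.33 with 1 xenograft left out. The median over the 3 TECs of the cytotoxic genes was 0.57, and 0.14 to 1.12 with 1 TEC left out, lowest without Hepa1-6 TEC.

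3 alternatives were chosen after seeing the data. Without Cd8a the T cell median was -2.19 in Hepa1-6 cells, in place of -1.50, and the T cell xenograft difference 0.49. With probes that were not well above background in Hepa1-6 cells, the T cell median was -0.72 in KYN-2 TEC and -2.89 in Hepa1-6 cells, the cytotoxic median in KYN-2 TEC was 0.90 in place of -0.03 and their difference 1.62 in place of 0.12, and the xenograft difference was 0.60 for T cell and -3.89 for cytotoxic genes. With dim signals raised to the lowest signal well above background, the T cell median was -1.06, the cytotoxic median -2.47 and their difference -1.41 in Hepa1-6 cells, and the T cell xenograft difference was 0.68.

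Among members called by the rule of size, Gzma in Hepa1-6 TEC was called under every alternative run. In HAK-1B TEC 1 was called higher with any probe, with no flag filter, with the flag on both arrays and with no Z-score. In KYN-2 TEC 1 was called lower with scaling, with quantile normalization of the 2 arrays alone, with any probe and with no flag filter. With no Z-score 5 were called lower in HAK-1B TEC, 3 higher and 4 lower in Hepa1-6 TEC, 2 higher and 2 lower in KYN-2 TEC, and 1 higher and 8 lower in Hepa1-6 cells. The share of all genes called without the Z-score is not given here, so these counts have no background beside them and show nothing particular to the members. In Hepa1-6 cells 1 was called lower with normexp and 0 with the flag on both arrays, in place of 3. By the looser flag for positive and significant signal 5 T cell genes were present in Hepa1-6 cells, in place of 2. The limma comparison of xenograft with Hepa1-6 TEC called 6478 probes with scaling and 28 with normexp, in place of 0, and that of TECs with LSEC called 0 under each alternative, with 2089 to 5563 probes at an unadjusted p below 0.05. The cause of these changes was not tested. No paired analysis was possible because a single array stood for every condition. A block for slide was left out, since LSEC and Hepa1-6 cells each had a slide of their own and the 3 TECs shared 1. The number of arrays and signals near background limit all of these values.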
